A study of Mus musculus with 4 samples.

Results

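Cxcl9, Cxcl10 and Cxcl11 are the 3 genes for the chemokines that bind the receptor CXCR3, and they were followed here through every cell that passed quality filters in 4 single-cell RNA-seq libraries of fibroblasts from mouse melanoma. They were 3 of the 33696 genes in the deposited gene list and were chosen by name. Intraperitoneal B16-F1-OVA tumors, a melanoma line carrying ovalbumin, were taken on day 14 from C57Bl/6 mice that carried both Cxcl13-cre-tdTomato and R26R-eGFPflox, the latter from the strain B6;129-Gt(ROSA)26Sortm2Sho/J. A cell is thus red while its Cxcl13 promoter is active, and the Cre made with the red protein switches on eGFP for good, which marks past activity as well. CD45neg CD31neg PDPNhi cells were sorted into tdTomatoneg eGFP+, tdTomato+ eGFPneg, tdTomato+ eGFP+ and tdTomatoneg eGFPneg cells, and each population gave 1 library. All 4 populations came from tumor-bearing reporter animals, male and female, and the number of tumors pooled was not stated in the sources used here.

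CXCR3 is a chemokine receptor of activated T cells and NK cells, and its ligands guide these cells into inflamed tissue and tumors. Transcription of all 3 ligand genes is induced by interferons: interferon-gamma, made by T cells and NK cells, is the classical inducer of Cxcl9, while Cxcl10 also answers to type I interferons and to NF-kB. The genes lie next to each other on chromosome 5. RefSeq annotates Cxcl9 (ENSMUSG00000029417) and Cxcl10 (ENSMUSG00000034855) as protein coding and Cxcl11 (ENSMUSG00000060183) as a transcribed pseudogene in the C57BL/6J reference.

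The RefSeq promoter table held 2 of the 3 genes. The 250 bases before the start of each are shown because the promoters of the pair differ in the motifs found, and because the results below turn on how each ligand moves with interferon and NF-kB target genes. Both are on the minus strand of GRCm38.p6, Cxcl9 at chr5:92328080-92328329 and Cxcl10 at chr5:92348890-92349139, written 5′ to 3′, with matches to the interferon-stimulated response element (ISRE) core (GAAA, 2 bases of any kind, GAAA) or to the NF-kB consensus in capitals.
Cxcl9: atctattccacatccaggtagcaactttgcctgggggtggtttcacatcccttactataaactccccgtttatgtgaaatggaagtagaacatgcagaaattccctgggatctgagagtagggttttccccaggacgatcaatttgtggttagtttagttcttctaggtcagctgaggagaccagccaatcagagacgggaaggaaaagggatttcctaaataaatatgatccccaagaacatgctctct
Cxcl10: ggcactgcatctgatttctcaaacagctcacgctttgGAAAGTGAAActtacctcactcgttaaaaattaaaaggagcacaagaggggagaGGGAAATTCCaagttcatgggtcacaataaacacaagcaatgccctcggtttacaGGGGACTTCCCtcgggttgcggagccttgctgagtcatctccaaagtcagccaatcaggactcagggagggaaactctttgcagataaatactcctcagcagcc
The Cxcl10 window held an ISRE core at bases 213 to 204 before the start. It also held NF-kB consensus matches at bases 159 to 150 and, overlapping each other, at 104 to 95 and 103 to 94. Both strands were searched. Among 32851 promoter windows of the same length, 2.98% held an ISRE core, 7.25% an NF-kB consensus and 0.164% both. Neither motif, nor the gamma-activated sequence TTCNNNGAA that 7.02% of windows held, was found in the Cxcl9 window. A match is a run of letters and not a shown binding site, and a missing match says only that these letters are not in this window.

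Of 24489 barcodes, 22691 were kept: 6006 tdTomatoneg eGFP+, 4952 tdTomato+ eGFPneg, 920 tdTomato+ eGFP+ and 10813 tdTomatoneg eGFPneg cells. Median depth was 8399, 9154, 8670.5 and 5607 unique molecular identifiers (UMIs) per cell in that order, and pairs of libraries shared 2 to 21 barcodes. Of these, 21476 were collagen-expressing cells, in which Col1a1 was detected in 94.3% and the leukocyte gene Ptprc in 0.28%. The label of fibroblasts fitted only part of them, since 10248 fell in 3 groups in which 4 to 7 of 8 mesothelial markers and none of 8 fibroblast markers were raised over the other collagen-expressing groups. Col1a1 was still detected in 93.5% to 98.7% of the cells of those 3 groups, and the mesothelial keratin gene Krt19 in 38.2% to 56.6%, against 2.48% to 15.8% in the other 4. Another 622 cells were melanoma-like, and 593 fell in an immune-like cluster whose largest subcluster, 306 cells led by Cxcl12, also carried all 8 fibroblast markers. With 1 library per population no test between populations was possible. Intervals below are exact 95% intervals that cover counting error only, and CPM is the number of UMIs of a gene per 1000000 UMIs of all genes, summed over the cells named.

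Cxcl10 was the most abundant of the ligands, Cxcl9 came second and Cxcl11 was close to absent. Over all kept cells Cxcl10 stood at 1126 CPM [1121, 1131] with a UMI in 69.5% of cells, Cxcl9 at 563 CPM [559, 566] in 32.8% of cells, and Cxcl11 at 1.29 CPM [1.14, 1.46] in 0.806% of cells. The 2 abundant genes were ordered differently across the sorted populations. Cxcl9 was lowest in tdTomatoneg eGFP+ cells at 293 CPM [288, 297], reached 525 CPM [518, 531] in tdTomato+ eGFPneg and 517 CPM [502, 532] in tdTomato+ eGFP+ cells, and was highest in tdTomatoneg eGFPneg cells at 780.2 CPM [774, 786]. Cxcl10 was lowest in that last population, at 786 CPM [779.9, 792], against 1217 CPM [1208, 1226] in tdTomatoneg eGFP+, 1349 CPM [1326, 1373] in tdTomato+ eGFP+ and 1549.9 CPM [1539, 1561] in tdTomato+ eGFPneg cells. The Cxcl9 intervals of the 2 tdTomato+ populations overlapped, and no other neighbours in either order overlapped. In the tdTomatoneg eGFPneg library the 2 ligands were thus nearly level, while in the other 3 Cxcl9 was 0.24 to 0.38 of Cxcl10.

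Shares of cells gave the same lowest population for each gene once every cell was thinned to 1000 UMIs. Cxcl9 was then detected in 10.2% of tdTomatoneg eGFP+ cells [9.47, 11.03], 18.9% of tdTomato+ eGFPneg cells [17.8, 20.02], 17.0% of tdTomato+ eGFP+ cells [14.6, 19.6] and 21.8% of tdTomatoneg eGFPneg cells [21.02, 22.6]. The shares before thinning were 21.5%, 36.95%, 32.8% and 37.3%. Cxcl10 was detected in 44.5% [43.3, 45.8], 48.97% [47.6, 50.4], 43.6% [40.4, 46.9] and 34.2% [33.3, 35.1] of thinned cells, and in 74.4%, 79.2%, 69.8% and 62.2% before. Both genes were concentrated in few cells, Cxcl9 more than Cxcl10. The 10% of collagen-expressing cells with the most UMIs of the gene carried 83.5% of all Cxcl9 UMIs and 58.6% of all Cxcl10 UMIs, and single cells held up to 428 and 306 UMIs.

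The populations held different kinds of fibroblasts, and the 2 ligands divided along those kinds. Clustering without the ligands or any listed pathway gene gave 7 collagen-expressing groups, named from fixed markers where at least 3 were raised and the 10 leading genes held a marker of that class or the cells were cycling, and otherwise from the leading gene. The Col6a6-led group had 5 of 8 mesothelial markers raised but none among its 10 leading genes. In matrix fibroblast-like cells, led by Mfap4, Aspn and Lum, Cxcl9 reached 2019.9 CPM [2003, 2037], and in their cycling counterpart 1921 CPM [1898, 1944]. The group led by Nos2, the inducible nitric oxide synthase, stood at 328 CPM [323, 333] and cycling mesothelial-like cells at 164 CPM [161, 168]. Mesothelial-like cells (64.7 CPM [61.3, 68.2]), Col6a6-led cells (63.9 CPM [60.2, 67.9]) and universal fibroblast-like cells (65.6 CPM [57.9, 74.02]) could not be told apart by their intervals. Both matrix groups lay above all other collagen-expressing groups of at least 50 cells in 4 of 4 libraries. This left out universal fibroblast-like cells in tdTomato+ eGFPneg (33 cells) and tdTomato+ eGFP+ (2 cells). The cycling matrix value in tdTomato+ eGFP+ rests on 43 cells.

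Cxcl10 followed another order. Its level was highest in cycling mesothelial-like cells, at 1451 CPM [1441, 1462], followed by Nos2-led cells at 1395 CPM [1384, 1405]. Mesothelial-like cells stood at 1151 CPM [1137, 1165] and Col6a6-led cells at 1127 CPM [1111, 1143], with overlapping intervals. Cycling matrix fibroblast-like cells had 736 CPM [722, 751], matrix fibroblast-like cells 667 CPM [657, 677] and universal fibroblast-like cells 422 CPM [402, 443]. Both matrix groups lay below all other collagen-expressing groups of at least 50 cells in 2 of 4 libraries, the tdTomato+ ones. Universal fibroblast-like cells, 33 in tdTomato+ eGFPneg (253 CPM) and 2 in tdTomato+ eGFP+, were not counted there. In the tdTomatoneg libraries universal fibroblast-like cells lay below both matrix groups, at 292 CPM in eGFP+ and 431 CPM in eGFPneg cells. This group was low in both genes. The highest group exceeded the lowest by 3.44-fold for Cxcl10 and by 31.6-fold for Cxcl9, and both are lower bounds where free RNA adds to the lowest groups. The number of Cxcl9 UMIs per Cxcl10 UMI was 3.03 in matrix fibroblast-like and 2.61 in cycling matrix fibroblast-like cells, against 0.235 in Nos2-led, 0.113 in cycling mesothelial-like and 0.0562 in mesothelial-like cells.

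**Figure D1:**
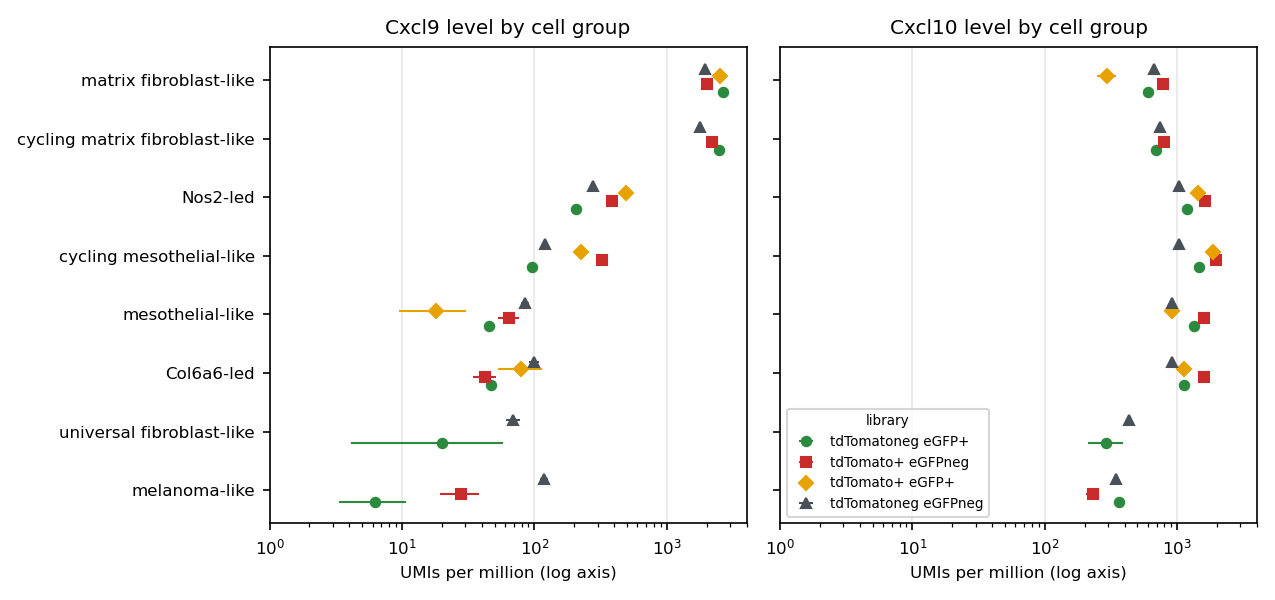
Level of Cxcl9 (left) and Cxcl10 (right) in 7 collagen-expressing groups and melanoma-like cells on a log axis of CPM, with 1 point per library with at least 50 cells in the group and bars for the exact 95% counting interval. Cxcl9 in the matrix groups lies between 1782 and 2635 in every library shown and at or below 490 in the other groups plotted, while Cxcl10 is highest in the mesothelial-like and Nos2-led groups.

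The melanoma-like cells served as a gauge of free RNA. Melanoma cells can express Cxcl10 under interferon, so that for Cxcl10 the gauge may overstate it. They held 84.6 CPM [79.3, 90.2] of Cxcl9, and their thinned share, 4.55% [3.05, 6.51], was close to the 4.65% of mesothelial-like, 4.88% of Col6a6-led and 4.91% of universal fibroblast-like cells. By library the melanoma-like cells held 6.28 CPM of Cxcl9 in tdTomatoneg eGFP+, 27.7 in tdTomato+ eGFPneg, 47.6 in tdTomato+ eGFP+ (17 cells) and 118 in tdTomatoneg eGFPneg, which gave 418 of the 622 cells. In that last library mesothelial-like cells (84.7 CPM), Col6a6-led cells (98.9 CPM) and universal fibroblast-like cells (68.6 CPM) lay below the gauge, and their Cxcl9 was read as background there. In tdTomatoneg eGFP+ mesothelial-like cells (45.8 CPM [41.4, 50.5]) and Col6a6-led cells (47.3 CPM [42.8, 52.2]) lay above the gauge in CPM. In tdTomato+ eGFPneg mesothelial-like cells did (63.8 CPM [53.1, 76.0]). The melanoma-like cells were deeper, so that the same number of free UMIs per cell gives them a lower CPM. Before thinning, 8.91% of mesothelial-like and 10.6% of Col6a6-led cells of tdTomatoneg eGFP+ held Cxcl9, against 8.62% [4.21, 15.3] of melanoma-like cells. In tdTomato+ eGFPneg 12.03% of mesothelial-like cells did, against 15.5% [7.996, 26.03]. The intervals of the thinned shares overlapped as well. Whether the Cxcl9 of these cells was background in those libraries was not tested. The median depth before thinning was 17636.5 UMIs in melanoma-like cells against 5209, 5655 and 1743.5 in the 3 groups. Thinned shares of 50.9% in matrix fibroblast-like, 56.9% in cycling matrix fibroblast-like, 13.9% in Nos2-led and 8.26% in cycling mesothelial-like cells lay above the pooled share. Before thinning these were 75.1%, 84.2%, 31.0% [29.7, 32.3] and 23.9% [22.7, 25.2], against 24.1% [20.8, 27.7] in melanoma-like cells. Cycling mesothelial-like cells were thus above the gauge only after thinning. Nos2-led cells of tdTomatoneg eGFPneg stood at 29.7% [26.4, 33.3] before thinning, against 30.6% [26.2, 35.3] in melanoma-like cells of that library. Thinned, they stood at 11.1% [8.90, 13.7]. In tdTomatoneg eGFPneg, cycling mesothelial-like cells were at the gauge of their library, with 120 CPM [115, 126] and a thinned share of 6.22% [5.10, 7.49] against 6.04% [3.95, 8.79]. For Cxcl10 the melanoma-like share was 20.2% [17.1, 23.6] at 349 CPM [338, 360]. Universal fibroblast-like cells, at 22.4% [20.4, 24.6], were at that level, and the other 6 collagen-expressing groups ranged from 33.1% to 50.7%. That gap was seen after thinning. Before it, 66.2% [62.4, 69.95] of the deeper melanoma-like cells held Cxcl10. The intervals of matrix fibroblast-like (64.1% [62.5, 65.8]), mesothelial-like (67.2% [65.6, 68.7]) and Col6a6-led cells (71.5% [69.6, 73.4]) overlapped it. Nos2-led (71.9% [70.6, 73.2]), cycling matrix (78.9%) and cycling mesothelial-like cells (85.9%) lay above it. The part of free RNA in these shares was not tested.

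Because the groups differed so much in Cxcl9, the makeup of each library moved with its level. The 2 matrix groups made up 20.5% of kept cells and carried 72.6% of all Cxcl9 UMIs but 12.6% of Cxcl10 UMIs. They were 33.2% of tdTomatoneg eGFPneg cells and 6.98% of tdTomatoneg eGFP+ cells, with 11.1% and 10.5% in the tdTomato+ eGFPneg and tdTomato+ eGFP+ libraries. When each library was given the same mix of 6 collagen-expressing groups (universal fibroblast-like cells, of which tdTomato+ eGFP+ had 2, were left out), the highest library exceeded the lowest in Cxcl9 by 1.29-fold, instead of 2.97-fold over the same groups as found. The standardised Cxcl9 levels were 681 CPM in tdTomatoneg eGFP+, 683 CPM in tdTomato+ eGFPneg, 719 CPM in tdTomato+ eGFP+ and 557 CPM in tdTomatoneg eGFPneg cells, so that the population with the highest level as found became the lowest. For Cxcl10 the spread fell less, from 1.89-fold to 1.65-fold, and the order stayed, with 1527 CPM in tdTomato+ eGFPneg, 1243 CPM in tdTomato+ eGFP+, 1152 CPM in tdTomatoneg eGFP+ and 924 CPM in tdTomatoneg eGFPneg cells.

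**Figure D2:**
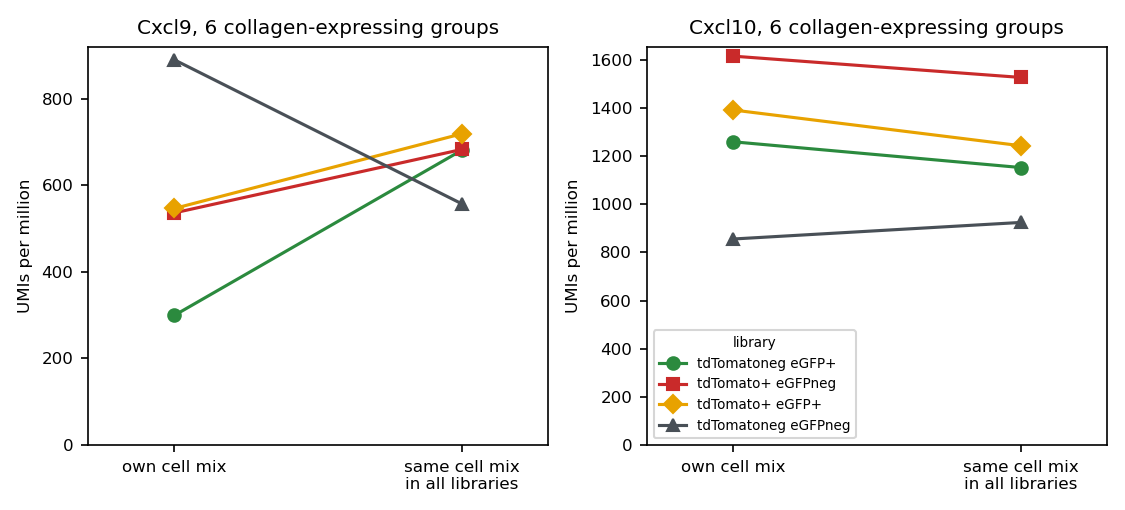
Level of Cxcl9 (left) and Cxcl10 (right) in CPM over 6 collagen-expressing groups in each library, as found with the library's own mix of groups and after giving all libraries the same mix. For Cxcl9 the 4 libraries run from 299 to 890 as found and from 557 to 719 at the same mix, and for Cxcl10 the order is kept.

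Within a cell group the libraries still differed, and again differently for the 2 genes. In matrix fibroblast-like cells Cxcl9 was 2635 CPM in tdTomatoneg eGFP+, 2011 CPM in tdTomato+ eGFPneg, 2534 CPM in tdTomato+ eGFP+ and 1930 CPM in tdTomatoneg eGFPneg cells, a 1.37-fold range. The tdTomato+ eGFP+ value rests on 54 cells. In cycling mesothelial-like cells the range was 3.37-fold, from 96.1 CPM in tdTomatoneg eGFP+ to 324 CPM in tdTomato+ eGFPneg cells. In Nos2-led cells, which made up 2335 of 4952 tdTomato+ eGFPneg and 414 of 920 tdTomato+ eGFP+ cells, it was 205 CPM in tdTomatoneg eGFP+, 276 CPM in tdTomatoneg eGFPneg, 385 CPM in tdTomato+ eGFPneg and 490 CPM in tdTomato+ eGFP+ cells, so both tdTomato+ libraries lay above both tdTomatoneg libraries. Cxcl10 in Nos2-led cells was 1022 CPM in tdTomatoneg eGFPneg, 1187 CPM in tdTomatoneg eGFP+, 1430 CPM in tdTomato+ eGFP+ and 1620 CPM in tdTomato+ eGFPneg cells, with the same split. The tdTomato+ eGFPneg library had the highest Cxcl10 level in each of the 6 collagen-expressing groups in which it had at least 50 cells. In melanoma-like cells it had the lowest, at 229 CPM in 71 cells.

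Cxcl11 gave 260 UMIs in 183 cells, of which 141 held a single UMI. By library it stood at 1.38 CPM [1.09, 1.71] in tdTomatoneg eGFP+, 1.37 CPM [1.07, 1.74] in tdTomato+ eGFPneg, 4.06 CPM [2.88, 5.58] in tdTomato+ eGFP+ and 0.873 CPM [0.684, 1.10] in tdTomatoneg eGFPneg cells. The high value rested on 1 cell with 21 UMIs, without which it was 1.82 CPM [1.06, 2.92] and overlapped the other tdTomato+ library. Nos2-led cells, with the cell of 21 UMIs among them, held 105 of the UMIs at 2.23 CPM [1.83, 2.71]. Matrix fibroblast-like cells stood at 0.732 CPM [0.447, 1.13]. The shares of cells with Cxcl11 before thinning were 1.36% [1.05, 1.73] and 0.378% [0.201, 0.646], at median depths of 9114.5 and 6838 UMIs. After thinning to 1000 UMIs the share of cells with Cxcl11 was 0.131% [0.0881, 0.189] overall. It ran from 0.0585% in matrix fibroblast-like to 0.244% in Col6a6-led cells, with intervals that all overlapped that of the melanoma-like cells (0% [0, 0.598]). Too few Cxcl11 UMIs were left at this depth to tell the shares of the groups apart.

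Most Cxcl9-holding cells as sequenced also held Cxcl10. The share that did was 76.4% in collagen-expressing cells and 67.7% in matrix fibroblast-like cells. Among kept cells as sequenced, 9965 held Cxcl10 alone of the 3 ligands, 5621 held Cxcl9 and Cxcl10, 1750 held Cxcl9 alone, 78 held all 3 and 5172 held none. Another 95 held Cxcl10 and Cxcl11, 3 held Cxcl9 and Cxcl11, and 7 held Cxcl11 alone. Cells with none were shallower, with a median of 3393.5 UMIs against 7924 for Cxcl10 alone and 10414 for both abundant ligands. Of the 160 collagen-expressing cells with Cxcl11, 152 also held Cxcl10 and 76 also held Cxcl9. Their Cxcl10 level was 4110 CPM against 1150 CPM in the other collagen-expressing cells, and their median depth 11112 against 7225.5 UMIs.

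At an equal depth of 3000 UMIs, which 16883 collagen-expressing cells reached, 44.2% held Cxcl10 only, 17.7% both, 10.6% Cxcl9 only and 27.5% neither. Cells with Cxcl9 only were found mostly in the matrix groups. They made up 32.6% of matrix fibroblast-like and 26.5% of cycling matrix fibroblast-like cells, 7.05% of Nos2-led cells and 2.43% to 4.91% of cells in the other 4 groups. Cxcl10-only cells made up 15.02% and 13.8% of the matrix groups and 60.8% of cycling mesothelial-like and 61.3% of Col6a6-led cells. Without regard to group, the 2 ligands looked unrelated, since Cxcl10 was found in 62.5% of Cxcl9-holding cells [61.1, 63.9] and in 61.7% of Cxcl9-zero cells [60.8, 62.6]. Compared within strata of 1 library and 1 cell group (13 strata with at least 50 cells of each kind), the shares were 62.9% and 56.1%. The share was higher in Cxcl9-holding cells in 12 of 13 strata, with differences from -2.92 to 15.3 points and a median of 8.87. In the 10 strata outside the mesothelial-like and Col6a6-led groups it was higher in all 10. These included cycling mesothelial-like cells of tdTomatoneg eGFPneg (72.6% against 64.5%), whose Cxcl9 was at the gauge of free RNA.

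**Figure D3:**
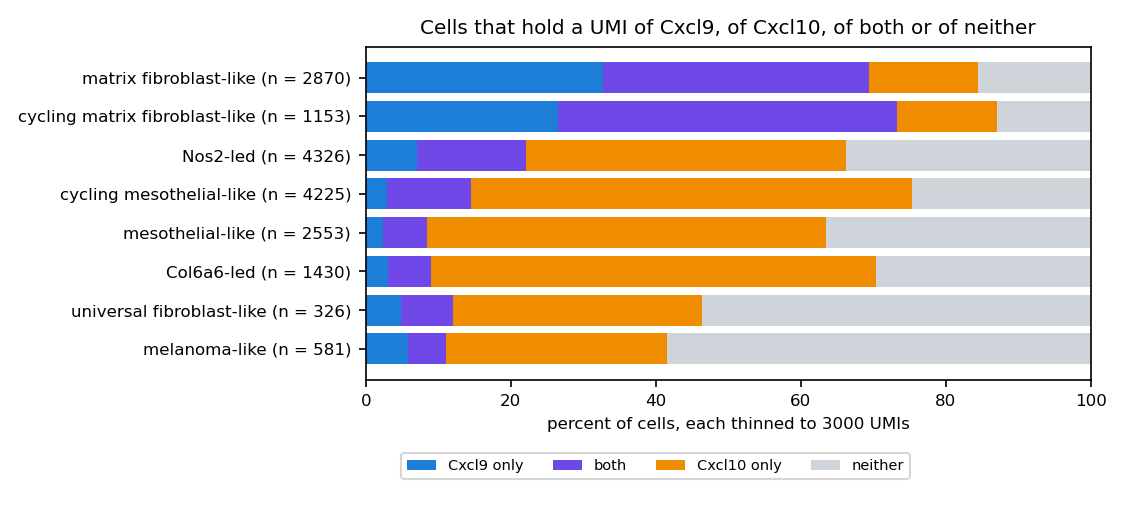
Percent of cells in each group that hold a UMI of Cxcl9 only, of both, of Cxcl10 only or of neither, with every cell thinned to 3000 UMIs and the number of cells in brackets. Cxcl9 with or without Cxcl10 fills most of both matrix groups, whereas Cxcl10 alone is the widest class in the Nos2-led, mesothelial-like and Col6a6-led groups.

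The interferon genes themselves were almost undetected. Ifng gave 18 UMIs in 13 cells and Ifnb1 gave 72 UMIs in 50 cells. Of the 13 Ifna genes listed, only Ifna2 had a UMI, and it had 1. The receptor gene Cxcr3 gave 42 UMIs in 37 cells, of which 38 UMIs were in melanoma-like or immune-like cells. The receiving side was present in every group, with the interferon-gamma receptor chain Ifngr1 at 35.8 to 135 CPM and Ifngr2 at 41.9 to 71.4 CPM over the 7 collagen-expressing groups, and the type I receptor chain Ifnar2 at 159 to 247 CPM. Dpp4, a peptidase that trims CXCR3 ligands, and Ackr3, a scavenging receptor that can take up CXCL11, stood highest in universal fibroblast-like cells at 275 and 454 CPM, against 3.04 to 38.6 and 69.5 to 113 CPM in the other groups. Dpp4 was 1 of the 7 fixed markers used to name that group, so its high level there is not a separate finding.

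Across cell groups, high Cxcl9 did not go with high interferon-response genes. A list of 14 interferon-gamma-induced GTPases was drawn from the Gbp, Irg and Tgtp families, which act against intracellular pathogens. Some of these, such as Tgtp1 and Tgtp2, are near-identical copies whose reads the counting could split. Their summed level was 1798 CPM in matrix and 1759 CPM in cycling matrix fibroblast-like cells, and 3629 CPM in Nos2-led and 3393 CPM in mesothelial-like cells. A list of 20 type I interferon response genes, with Ifit1, Isg15 and Rsad2 among them, summed to 2126, 2139, 3422 and 5668 CPM in the same 4 groups. Bst2 alone gave 902, 965, 1603 and 3127 CPM of these sums. MHC class II genes summed to 1013 and 1112 CPM in the matrix groups and to 5528 CPM in mesothelial-like cells. Over 32 units of 1 library and 1 cell group, Pearson's r of log2(CPM + 1) between Cxcl9 and Cxcl10 was 0.025. Gbp2 correlated with Cxcl10 at 0.86 and with Cxcl9 at -0.081. The genes outside the lists whose pattern was most like Cxcl9 were Prdx4 (0.90), Slc15a3 (0.90), Tnc (0.90), Serpina3f (0.89) and Ednra (0.89), and those most like Cxcl10 were Wnt4 (0.91), Sdc4 (0.90), Cacnb2 (0.89), Npl (0.89) and Aqp1 (0.89), out of 8047 genes. The units share libraries and cell groups, so these values describe the pattern and carry no test.

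Within a cell group and library the picture differed. Cells that held a ligand were set against cells with none of it, at 3000 UMIs each and leaving out the UMIs of the 3 ligands, and the ratios were combined over strata by the number of holding cells. A gene was counted as higher where its combined log2 ratio was above 0.25 and above 0 in every library, a rule of size with no test. A cell with no UMI of a ligand can still express it, so the ratios compare detection classes.

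Cxcl10-holding cells (10138 cells against 6235, 19 strata) had more RNA of both interferon lists. All 12 measured GTPase genes were counted as higher, where 4.83% of 7977 genes were. Their sum was 3371 CPM in holding and 1934 CPM in zero cells, a log2 ratio of 0.80, above 0 in 19 of 19 strata. Gbp5 (1.19 on the log2 scale), Gbp4 (1.08) and Gbp6 (0.99) led the list, and Iigp1, its most abundant member, stood at 0.84. Of 19 type I response genes 15 were higher, with a log2 ratio of the sum of 0.39 and 19 of 19 strata above 0. Rsad2, which encodes the antiviral enzyme viperin, was at 1.52, Cmpk2, its genomic neighbour, at 1.41, Ifit1 at 1.24 and Isg15 at 0.61. The exceptions were Bst2 (0.19), Irf7 (0.17), Oas1a (0.095) and Oas3 (0.063). Among the interferon signalling genes Irf1 (0.69) and Stat2 (0.29) were higher, and the receptor chains Ifnar1, Ifnar2, Ifngr1 and Ifngr2 lay between -0.096 and 0.16.

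Cxcl9-holding cells (4101 against 10325, 13 strata) also had more GTPase RNA, while the type I response differed by cell group. Of the 12 GTPase genes 11 were higher, where 3.74% of 7977 genes were, and the sum was 2805 CPM against 1957 CPM, a log2 ratio of 0.52 that was above 0 in 13 of 13 strata. Of these strata 3 were mesothelial-like or Col6a6-led, where a Cxcl9 UMI may be background, and without them the log2 ratio was 0.54, above 0 in 10 of 10. The 10 still included cycling mesothelial-like cells of tdTomatoneg eGFPneg (0.39), whose Cxcl9 was at the gauge of free RNA. Gbp4 stood at 0.68, Iigp1 at 0.65 and Tgtp2 at 0.61, and the exception was Gbp9 (0.11). Without the tdTomatoneg eGFPneg library 7 of 12 were higher, where 6.34% of genes were, and the log2 ratio was 0.33. Of 19 type I response genes only Ifit2 (0.60) and Mx2 (0.56) were higher, and the sum had a log2 ratio of 0.15 with 8 of 13 strata above 0. In all 3 matrix strata it was above 0 (0.30 to 0.64), with a combined value of 0.36, and in the 7 strata of Nos2-led and cycling mesothelial-like cells it ran from -0.20 to 0.19, with a combined value of 0.027 and 4 of 7 above 0. The difference between these groups was not tested. Over all strata Rsad2 stood at -0.11, Ifit3 at 0.0025 and Cmpk2 at 0.095, while Oas2 (-0.28) was counted as lower, where 3.27% of genes were. Irf1 (0.27) was higher. In the 13 strata that both comparisons share, the type I ratio was larger for Cxcl10 than for Cxcl9 in 12, and the GTPase ratio in 10. In the 3 matrix strata the GTPase ratio was larger for Cxcl9, at 0.92 to 0.99 against 0.74 to 0.88. Combined over these strata it was 0.93 for Cxcl9, with 12 of 12 genes higher where 10.7% of genes were. In Nos2-led and cycling mesothelial-like cells it was 0.32, with 7 of 12 higher where 5.8% were.

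NF-kB target genes went with Cxcl10 and not with Cxcl9. The shares of all tested genes counted as higher were 4.83% with Cxcl10 and 3.74% with Cxcl9. In Cxcl10-holding cells 6 of 12 were higher, among them the adhesion molecule Icam1 (0.64), the chemokine Cxcl1 (0.55) and the feedback inhibitors Tnfaip3 (0.39) and Nfkbia (0.36), and the log2 ratio of the sum was 0.42, above 0 in 19 of 19 strata. In Cxcl9-holding cells only Sod2 (0.29) was higher, the log2 ratio of the sum was -0.052, and 5 of 13 strata were above 0. In all 13 shared strata the NF-kB ratio was larger for Cxcl10.

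**Figure D4:**
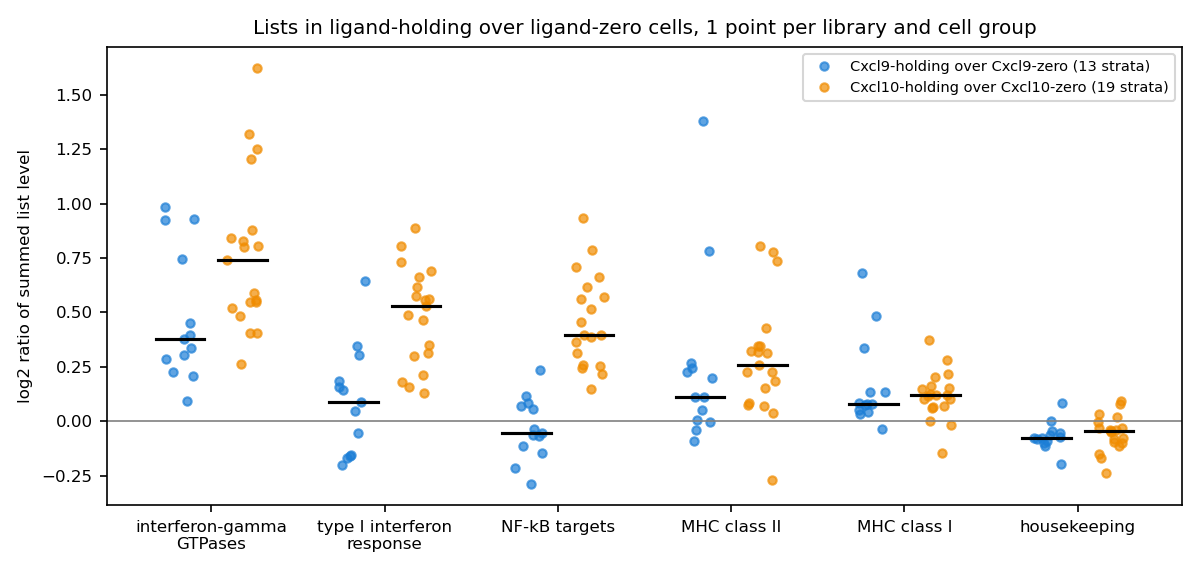
Log2 ratio of the summed level of 6 gene lists in ligand-holding over ligand-zero cells, 1 point per stratum of library and cell group (13 for Cxcl9, 19 for Cxcl10), with black bars at the median. The GTPase points lie above 0 for both ligands, the type I and NF-kB points lie above 0 throughout for Cxcl10 and on both sides of 0 for Cxcl9, and the housekeeping points stay near 0.

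Further lists moved with one or both ligands. Among all tested genes 4.83% were higher with Cxcl10 and 3.74% with Cxcl9. Of 6 measured MHC class II genes, H2-Aa, H2-DMa, H2-DMb1 and H2-Eb1 were higher in Cxcl10-holding cells (0.27 to 0.34), and H2-DMa (0.64) and H2-DMb1 (0.41) in Cxcl9-holding cells. Of 12 MHC class I genes, 5 were higher with Cxcl10 and 4 with Cxcl9, and both included Nlrc5 (0.43 and 0.49), the transactivator of this pathway, and the peptide transporter Tap1 (0.34 and 0.32). Of 12 other chemokines 9 were higher with Cxcl10, Ccl2 (0.92), Ccl7 (0.91) and Ccl5 (0.78) foremost, and Cxcl14 (-0.56) was lower. With Cxcl9, Ccl5 (1.33), Cxcl14 (0.96), Cxcl12 (0.76), Cxcl5 (0.33) and Ccl2 (0.25) were higher and the B cell chemokine Cxcl13 (-0.47) was lower, whereas Cxcl13 was higher with Cxcl10 (0.60). Cxcl1 and Cxcl2 are in both the chemokine and the NF-kB list. Hypoxia genes were lower, 6 of 8 with Cxcl10, where 3.17% of genes were lower, and 4 of 8 with Cxcl9, where 3.27% were. Ndrg1 stood at -0.96 and -0.37 and the carbonic anhydrase gene Car9 at -0.67 and -0.63. No housekeeping gene was counted in either direction in either comparison.

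Among all genes counted as higher, those with the largest ratios in Cxcl10-holding cells were Cd274 (1.54), which encodes the checkpoint ligand PD-L1, Rsad2, Cmpk2, Gm4951 (1.38), Calhm6 (1.32), Irf8 (1.32), Serpina3f (1.26), Ifit1, Gbp5 and Ifit3b (1.18). In Cxcl9-holding cells they included Serpina3f (1.64), the endothelin receptor gene Ednra (1.496), Ccl5, Calhm6 (1.18), Slc15a3 (1.15), Zfp618 (1.15), Flt1 (1.08), Slamf8 (1.03) and Serpina3g (1.02). Calhm6 and Serpina3f were in both. At the other end, Pgf (-1.72) and the activin subunit Inhba (-1.54) were the lowest in Cxcl10-holding cells, and the opioid precursor Penk (-1.28) and Fhl1 (-1.14) in Cxcl9-holding cells.

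Cells sorted into 4 kinds, with neither, Cxcl9 only, Cxcl10 only or both, separated these links further. The 9 strata with at least 30 cells of each kind were used. The GTPase sum was 1593 CPM with neither, 2036 CPM with Cxcl9 only, 3060 CPM with Cxcl10 only and 3927 CPM with both, and cells with both were highest in 9 of 9 strata. Cells with Cxcl10 only exceeded cells with Cxcl9 only in 6 of 9. The type I response was 2751 CPM with neither, 2657 CPM with Cxcl9 only, 3804 CPM with Cxcl10 only and 3899 CPM with both, with Cxcl10 only above Cxcl9 only in 8 of 9 strata and cells with both highest in 5 of 9. NF-kB targets were 3613, 3550, 4930 and 4761 CPM in that order, with Cxcl10 only above Cxcl9 only in 9 of 9 and cells with both highest in 4 of 9. MHC class II genes were 2655, 2807, 3223 and 3528 CPM. Hypoxia genes were 2513, 2100, 1850 and 1702 CPM, and cells with both exceeded cells with neither in 2 of 9 strata. Housekeeping genes were 11858, 11259, 11211 and 10834 CPM.

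Cells with Cxcl10 only were also set directly against cells with Cxcl9 only, in the 5 strata from 3 libraries with at least 50 cells of each. Nos2-led cells of tdTomato+ eGFPneg and tdTomatoneg eGFP+ gave 1033 and 488 of the 2059 Cxcl10-only cells. The latter was the only stratum of its library. Of 19 type I response genes 17 were higher in Cxcl10-only cells, where 14.2% of 7977 genes were, and none was lower, where 9.03% were. The log2 ratio of their sum was 0.50, above 0 in 4 of 5 strata. Rsad2 was 56.5 CPM against 10.4 CPM and Ifit3 167 CPM against 48.6 CPM. Of 12 GTPase genes 8 were higher, and the log2 ratio of their sum was 0.84 overall but above 0 in only 2 of 5 strata. Ednra, at 42.02 CPM in Cxcl9-only and 10.7 CPM in Cxcl10-only cells, and the matrix phosphoprotein gene Spp1, at 588 and 153 CPM, were the genes furthest towards Cxcl9-only cells.

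**Figure D5:**
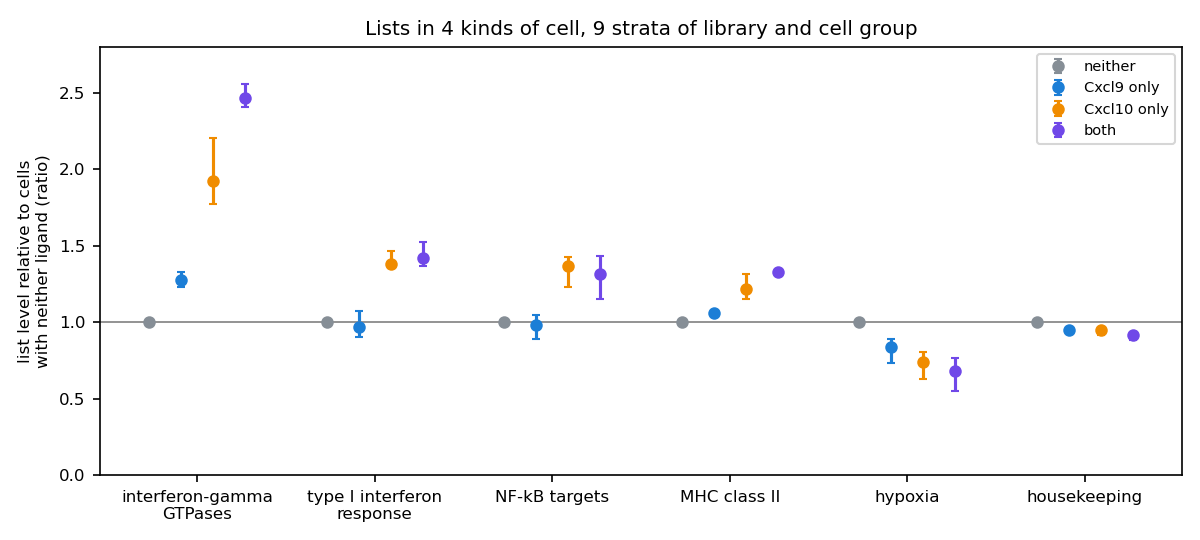
Summed level of 6 gene lists in cells with Cxcl9 only, Cxcl10 only or both, as a ratio to cells with neither, over 9 strata of library and cell group, with bars for the range when each library in turn is left out. Over all strata GTPases are at 1.28 with Cxcl9 only, 1.92 with Cxcl10 only (above Cxcl9 only in 6 of 9 strata) and 2.47 with both (highest in 9 of 9), while the type I and NF-kB lists are near 1 with Cxcl9 only.

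The link was graded. When collagen-expressing cells were divided into 4 equal classes by their GTPase score within each stratum, Cxcl10 was held by 41.9% of cells in the lowest class, then 57.7%, 68.6% and 80.04%, and Cxcl9 by 20.1%, 26.8%, 30.5% and 35.6%. The top class lay above the bottom in 21 of 21 strata for both genes. The steepest rise was that of Cxcl10 in Nos2-led cells, from 25.1% [22.5, 27.8] to 89.3% [87.3, 91.04], and Cxcl9 rose most in matrix fibroblast-like and cycling matrix fibroblast-like cells, from 50.0% to 83.9% and from 51.4% to 87.1%. Across the 4 classes of the type I score Cxcl10 went from 47.98% to 75.3%, above in 21 of 21 strata, and Cxcl9 from 24.3% to 30.5%, above in 16 of 21, with 55.7% to 75.5% in matrix and 59.3% to 78.8% in cycling matrix fibroblast-like cells. Across the 4 classes of the NF-kB score Cxcl10 went from 48.9% to 73.4%, above in 21 of 21 strata, and Cxcl9 from 27.6% to 26.98%, above in 9 of 21. Counting UMIs of the ligand gave the same grading, with the GTPase sum at 1934, 2489, 2955 and 4046 CPM in cells with 0, 1, 2 to 3 and 4 or more Cxcl10 UMIs, and at 1957, 2166, 2441 and 3400.1 CPM for Cxcl9. Per-cell correlations of the log-scaled score with the ligand were weak to moderate, with a median Pearson's r over 21 strata of 0.36 for GTPases and Cxcl10 and 0.16 for GTPases and Cxcl9.

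Markers of other cell types were set beside these ratios. Immune markers summed to 15.6 CPM in Cxcl9-holding and 16.8 CPM in Cxcl9-zero cells (ranges over libraries 12.6 to 21.6 and 14.2 to 20.5), and to 16.1 and 14.8 CPM for Cxcl10 (13.0 to 18.9 and 12.03 to 24.6). Macrophage markers stood at 34.6 against 43.6 CPM for Cxcl9 and 45.6 against 55.8 CPM for Cxcl10. T and NK cell markers were at 3.34 against 1.48 CPM for Cxcl9, with 5 of 6 higher in holding cells, and 1.58 against 1.59 CPM for Cxcl10. The monocyte list, in which Plac8 (999.8 CPM) and the matrix gene Vcan (311 CPM) were abundant over all collagen-expressing cells, was at 1649 against 1358 CPM for Cxcl9 (1258 to 1805 and 1152 to 1616 over libraries) and 1301 against 1220.3 CPM for Cxcl10. The part of these RNAs in the ratios was not tested beyond the immune markers. B cell and neutrophil markers were at or below 0.967 CPM in every class, with 2 of 4 at 0 in Cxcl9-holding cells in each list. Of the 53 markers in 10 lists of other cells only 5 reached 10 CPM and could be counted, and none of the 5 was higher in either comparison. Without the 1586 of 16883 cells that held an immune marker, the GTPase log2 ratios were 0.53 for Cxcl9 and 0.78 for Cxcl10.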

How the data were processed

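The deposited files hold UMI counts per gene and barcode for 4 libraries (10x Genomics 3′ chemistry), made by the authors with Cell Ranger. The matrix headers name version 8.0.0 and the submitters' processing notes name Cell Ranger 10.0.0, STAR, Seurat 5.0 and the build GRCm39. Libraries held 10071954 to 90259852 UMIs. The counts were not normalized before deposit, and all were read.

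A barcode was kept if 500 to 6000 genes were detected in it and mitochondrial UMIs made up no more than 10%. Seurat 5.3.0 (R 4.3.3) clustered them on 2000 variable genes less the 3 ligands and all listed genes, with 25 components and 20 neighbours, into 5 clusters. The collagen-expressing cells were then clustered into 7 and the immune-like cells into 4 groups. Doublets were not removed in the main values. Scrublet (scanpy 1.11.5) called 254 cells, and removing the expected 0.8% per 1000 barcodes was an alternative. Cells were thinned without replacement (seed 1) to 1000 UMIs for shares and 3000 for pairs and links, leaving out shallower cells. Links used genes at 10 CPM or more, strata of library and cell group with at least 50 cells on each side (30 for the 4 kinds), and rates weighted by ligand-holding cells. The scripts were tested on simulated data. Intervals are exact Poisson (CPM) or Clopper-Pearson (shares) at 95%, since cells are not replicates and each population is 1 library, and UMIs guard against PCR copies but the intervals cover counting error only.

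The members, gene lists and tests were chosen with earlier results of these data known. Named genes were the 3 ligands, the listed pathway genes, for each ligand the 5 unlisted genes of most similar pattern and the 10 genes of highest ratio. The lowest genes of each ratio and the leading genes of the comparison of cells with 1 ligand only were named after their values were seen. A few genes that meet this rule are not reported here. Alternatives were the mitochondrial limit, doublets, thinning depth, averaging, sex-marked cells, gene filters and leaving out each library. Removing cells with an immune marker, the Cxcl11 value without its top cell, the Cxcl9 links without the 3 groups at the Cxcl9 share of melanoma-like cells and the 4 kinds without each library were added after seeing the data. Promoters are from RefSeq (GRCm38.p6), a different build from the counts, so no other coordinates are given.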

Additional observations from a re-analysis of the deposited data

How the results depend on the processing

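No paired analysis was possible because each population is 1 library and no result comes from a test over samples. No result is supported by a replicate, and depth limits Cxcl11 above all. Of the values that answer a comparison, 2 reversed, both of Cxcl11. Its log2 ratio of tdTomato+ eGFPneg over tdTomatoneg eGFPneg cells, 0.65, became -0.041 as a mean over cells of CPM per cell. Its log2 ratio of matrix fibroblast-like over mesothelial-like cells, -0.68, became 1.64 in cells with Xist and no Y-linked UMI, -1.79 in cells with a Y-linked and no Xist UMI, -1.75 as a mean over libraries, and ran from -2.86 to -0.39 when 1 library was left out. The cause was not tested.

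The following kept their direction and moved by more than the counting interval. The log2 ratio of tdTomato+ eGFPneg over tdTomatoneg eGFPneg cells, -0.57 for Cxcl9, was -0.54 with expected doublets removed, -0.45 as a mean over cells and -0.66 in collagen-expressing cells. For Cxcl10, 0.98, it was 1.06 as a mean over cells and 0.95 in collagen-expressing cells. The log2 ratio of matrix fibroblast-like over mesothelial-like cells, 4.96 for Cxcl9, was 5.14 without doublets, 5.44 in Xist-only cells, 5.42 as a mean over libraries and 4.65 to 5.62 leaving out 1 library. For Cxcl10, -0.79, it was -0.87, -0.45, -1.03 and -1.04 to -0.60 in the same settings and -1.05 in Y-only cells.

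Shares moved with depth and doublets. Cxcl9 was held by 32.8% of cells, by 31.4% without doublets and by 17.9% at 1000 UMIs. For Cxcl10 these were 69.5%, 68.5% and 40.6%, and for Cxcl11 0.806% became 0.131% at 1000 UMIs. The share of Cxcl9-holding cells with Cxcl10 was 62.5%, 76.4% as sequenced, 43.7% at 1000 and 71.4% at 5000 UMIs, and 60.02% to 67.9% leaving out 1 library. The share of Cxcl10-holding cells with Cxcl9 was 28.6%, 35.9%, 19.2%, 33.9% and 22.9% to 33.7%. The standardised difference, 6.76 points, was 11.7 as sequenced, 8.26 at 1000 UMIs and 6.17 to 8.85 leaving out 1 library.

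The type I log2 ratio for Cxcl9, 0.15, was 0.19 at 1000 UMIs, 0.071 as sequenced, 0.17 without cells holding an immune marker, 0.18 without the mesothelial-like, Col6a6-led and universal fibroblast-like groups and 0.099 to 0.19 leaving out 1 library. Its GTPase ratio, 0.52, was 0.60 at 1000 UMIs, 0.45 as sequenced, 0.54 without those 3 groups and 0.33 to 0.64. For Cxcl10 the type I ratio, 0.39, was 0.34 as sequenced and 0.36 to 0.44, and the GTPase ratio, 0.80, was 0.71 at 1000 UMIs, 0.88 at 5000 UMIs, 0.88 as sequenced and 0.71 to 0.85. The number of genes counted as higher with Cxcl9, 298, was 98 at 50 CPM or more, 598 with no filter and 10 at a log2 ratio above 1. With Cxcl10, 385, it was 143, 813 and 15. Of the remaining alternatives for single genes, groups and libraries, 535 values leaving out 1 library and 673 in other settings moved within their interval, 77 and 114 moved beyond it, and none reversed.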

Other observations

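Both sexes of mice were used in the study, and cells of every library could be divided by Xist and Y-linked UMIs. Cxcl10 was higher in cells with Xist and no Y-linked UMI than in cells with a Y-linked and no Xist UMI in 17 of 17 strata of library and cell group, with a median log2 ratio of 0.51 and a range from 0.014 to 1.07. In collagen-expressing cells it stood at 1396 against 1073 CPM in tdTomatoneg eGFP+, 1738 against 1216 CPM in tdTomato+ eGFPneg, 1599.5 against 1083 CPM in tdTomato+ eGFP+ and 882 against 730.5 CPM in tdTomatoneg eGFPneg cells. Cxcl9 was higher in Xist-only cells in 10 of 17 strata, with a median log2 ratio of 0.29. It was higher in Y-only cells of both tdTomato+ libraries (628 against 487 and 661 against 506 CPM) and lower in them in tdTomatoneg eGFPneg (747 against 1123 CPM) and tdTomatoneg eGFP+ cells (300.03 against 337 CPM). The number of animals of each sex is not known, so that sex and single animals or tumors cannot be told apart.

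The immune-like subclusters also held the ligands. Cxcl9 stood at 778 CPM [677, 890.4] and Cxcl10 at 374 CPM [305, 455] in the 97 cells led by Ptgds, in which 6 T and NK cell markers and 4 melanoma markers were among those raised, a ratio of 2.08 Cxcl9 UMIs per Cxcl10 UMI. In the 165 cells led by Cd5l, in which 7 macrophage markers were raised, they stood at 482 CPM [428, 540] and 583 CPM [524, 646]. Both subclusters were shallower than their libraries, with medians of 2044 and 2656 UMIs. Art3, which overlaps Cxcl10 and Cxcl11 on the opposite strand, had 1427 UMIs in all, against 226719 for Cxcl10.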
